A study of Caenorhabditis elegans with 11 samples.

Results

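The genes described here are 95 Caenorhabditis elegans genes that carried only a sequence name (such as D1086.3, the name of the sequenced clone and a gene number) and that the authors listed as lower after knockdown of a splicing factor in larvae. They were taken from the 2 deposited larval lists of lower genes, 66 genes in N2 and 139 in smg-1(r861), by keeping the entries whose description repeats the gene identifier. Entries that also stood in a larval list of higher genes were left out, which removed 3. This gave 32 genes in N2 and 73 in smg-1, with 10 genes in both, out of 939 different genes in all 6 deposited lists. The members were therefore chosen by the same knockdown over control contrast that gives their ratios, and those ratios are a description.

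The feeding clones used for RNA interference (RNAi) targeted prp-6 or prp-8 or prp-31. Their products belong to the U4/U6.U5 tri-snRNP, the particle that joins the assembling spliceosome and brings in the catalytic RNAs, and PRP8 is the protein at the heart of the catalytic centre. A weakened spliceosome can leave introns in a transcript or lower its amount. Faulty transcripts with an early stop codon are removed by nonsense-mediated decay, a pathway that needs the kinase SMG-1. A list of genes with only a sequence name has no shared function by definition, so these genes are grouped below by how they behaved in the libraries, by what current annotation says of them and by where they lie.

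The study sequenced poly(A)-enriched RNA of whole worms. The larval groups were N2 (wild type) and smg-1(r861) (strain TR1331), synchronized at L1, fed RNAi bacteria for 24 h at 20 °C and labelled L3. In each strain there was 1 library per target clone and 1 for the control clone, gfp, which has no target in worms without a GFP transgene. Adults (day 5) of the temperature-sensitive glp-4(bn2) mutant (strain SS104), whose germ cells do not proliferate at the restrictive temperature, were kept at 25 °C, given OP50 for 72 h and then prp-8, prp-31 or gfp RNAi for 48 h, with 1 library each. With 1 library per group no difference below has a replicate check. The strains share the same clones, but a fit with strain as a block would test, in the genes of both lists, the contrast that selected them, so no test was made. Of the depth only a lower bound is labelled, so no counting error can be attached to a value. In whole worms, fewer cells of a type and less RNA per cell cannot be told apart.

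Values are the authors' FPKM (fragments per kilobase of transcript, scaled to the mapped fragments of the library), a level per length. Ratios are log2((knockdown FPKM + 1)/(gfp FPKM + 1)), a scale on which the change of genes with low FPKM is understated, and a ratio of −1 is a level 2-fold lower. The target prp-31 stands in the list of higher genes of both strains. In its own knockdown library it was below control (24.0 against 31.4 FPKM in smg-1 and 25.3 against 40.6 FPKM in N2). With prp-6 and prp-8 RNAi it was above control, at 95.3 and 122 FPKM in smg-1 and 133 and 144 FPKM in N2. The targets prp-6 and prp-8 are in none of the larval lists. The ribosomal RNA gene rrn-2.1, which poly(A) selection should remove, had 36295 FPKM (prp-6), 34627 FPKM (prp-8) and 12191 FPKM (prp-31) in the smg-1 knockdown libraries, against 4034 FPKM in its gfp library, and its part in the lower FPKM of other genes was not tested. Among genes with a public name in the lower lists, the core histone list had 14 members in smg-1 and 1 in N2, the cuticle list 5 and 3 (with 4 in the smg-1 and 27 in the N2 list of higher genes), the germline list 0 and 2 (prg-2 and spn-4, of 10 names looked for) and the sperm list 0 and 1, and the intestine, muscle and neuron lists had none.

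Current annotation places nearly all of these genes among ordinary protein-coding genes. All 95 identifiers matched 1 gene in Ensembl release 115, where 92 are protein-coding and 3 are pseudogenes (Y102A5C.6, Y17D7B.7 and T20D4.13). In the RefSeq gene table for assembly WBcel235, 20 now have a gene name. They are spread over all 6 chromosomes, with 10 on I, 21 on II, 7 on III, 20 on IV, 24 on V and 13 on X. The 92 protein-coding genes had a median of 4 introns in the transcript with the longest coding sequence, the same median as the 19985 protein-coding genes of the annotation. Only T22D1.18 and Y46G5A.38 had no intron, which is 2.17 percent of the 92, against 3.53 percent of all protein-coding genes. Genes with a public name in the smg-1 lower list had none in 14 of 62 cases, and in 1 of 48 without the histone genes. In the N2 lower list, which holds 1 core histone gene, 4 of 32 public-name genes had none, beside 0 of 31 unnamed ones.

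**Figure D1:**
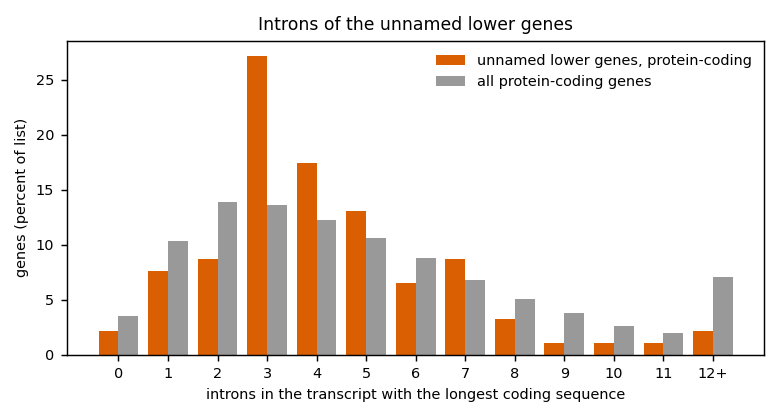
The plot shows the percent of genes (vertical axis) with each number of introns (horizontal axis, last bar 12 or more) for the 92 protein-coding genes described here (left bars, orange) and for all 19985 protein-coding genes of the annotation (right bars, grey). Genes with 3 introns make up 27.2 percent of the first list and 13.6 percent of the second.

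Their median coding length was 916.5 nucleotides, against 987 for all protein-coding genes, with extremes of 150 in T06A10.2 and 4635 in Y43D4A.5. In 7 genes the coding sequence is shorter than 300 nucleotides. FPKM of such short transcripts rests on few possible fragment positions. In 18 of the 95 genes an exon overlaps an exon of another protein-coding gene, among them C35A5.3, T12D8.5, C14A4.9 and Y102A11A.5. Whether the counting used strand is not stated, so reads of overlapping genes could have been split or shared. The deposited intervals of the 39 genes on the minus strand had a median of 124 bases and none above 286, whereas those of the 56 on the plus strand had a median of 1769.5, so an interval below is the authors' and need not cover the gene. The genome build of these intervals is not stated either.

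In N2 larvae the unnamed genes were lowest after prp-6 or prp-8 knockdown and only moderately below control after prp-31 knockdown. All 32 were below gfp in every knockdown, as were 13.9 percent of the 475 genes of both N2 lists. The median log2 ratio was −1.92 (prp-6), −1.48 (prp-8) and −0.63 (prp-31). At least 2-fold lower were 30 of the 32 with prp-6 (13.5 percent of all N2 list genes), 31 with prp-8 (21.9 percent) and 4 with prp-31 (2.74 percent). The selection used these same ratios, so nothing is read from the excess. In the gfp library the 32 genes ranged from 0.546 to 128.8 FPKM with a median of 17.6 FPKM.

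**Figure D2:**
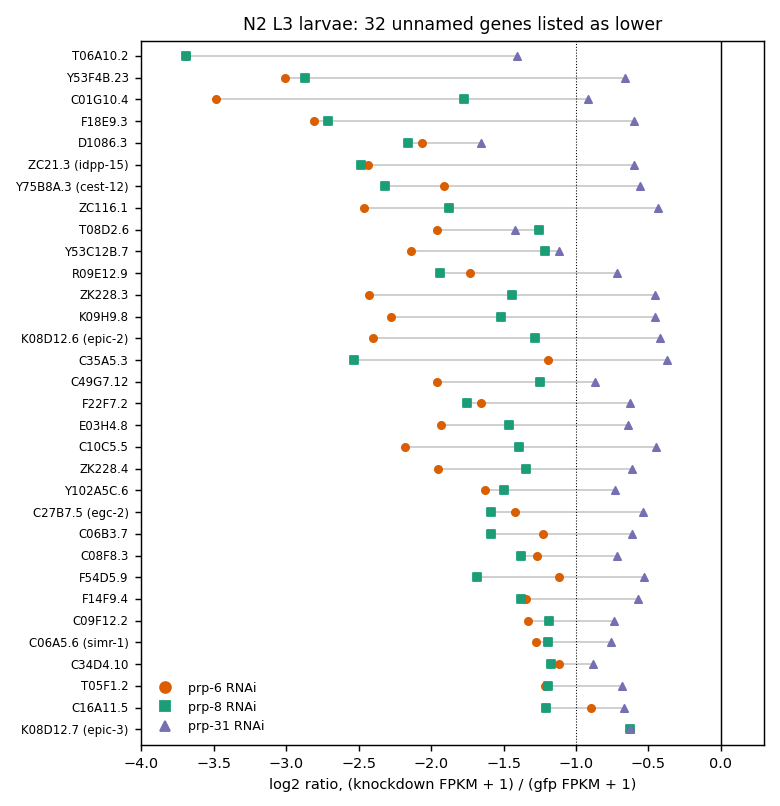
For each of the 32 N2 genes (rows, sorted by mean ratio, largest decrease at the top), points give the log2 ratio of knockdown to gfp FPKM, each with 1 added, for prp-6 (circles), prp-8 (squares) and prp-31 RNAi (triangles); the dotted line marks 2-fold lower. The triangles lie nearest to 0 in nearly all rows, with a median of −0.63.

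The place of prp-31 as the least lowered clone was nearly uniform in N2, while prp-6 and prp-8 shared the lowest place. Leaving out 2 genes with tied clones, prp-6 gave the lowest value for 17 genes, prp-8 for 13 and prp-31 for 0, and prp-31 was the least lowered clone in 29 of 30. The exception was T08D2.6, a very low gene with 0, 0.630 and 0.449 FPKM in the prp-6, prp-8 and prp-31 libraries, against 2.89 FPKM with gfp RNAi. Among public-name genes of the N2 lower list, prp-31 was the least lowered clone in 25 of 34. With 1 prp-31 library in N2 a library effect and a clone effect cannot be told apart.

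D1086.3 was the N2 gene with the largest decrease shared by all clones. It had 10.02 FPKM after prp-6, 9.30 FPKM after prp-8 and 13.6 FPKM after prp-31 knockdown, against 45.1 FPKM in the gfp control (deposited interval chromosome V, 14092863 to 14093986). All knockdowns were far below control, and prp-31 was only slightly above the others, at a log2 ratio of −1.66. In the authors' deposited table it is the only one of the 32 with a q-value below 0.05, at 0.0403. Of all 34 public-name genes in the N2 lower list, 1 had such a q-value. Over both N2 lists, with the higher genes in the total, 0.421 percent were called lower at that q-value. Among genes without a value of 0, Y53C12B.7 came next by its least lowered clone, with 4.25, 8.93 and 9.65 FPKM in the prp-6, prp-8 and prp-31 libraries, against 22.1 FPKM with gfp RNAi. The genes C01G10.4, C34D4.10, C49G7.12, C06A5.6, C09F12.2, the pseudogene Y102A5C.6, R09E12.9 and C08F8.3 followed, and for these 8 the ratio of the least lowered clone lay between −0.92 and −0.72.

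The widest differences between clones in N2 were in C01G10.4, Y53F4B.23 and T06A10.2. C01G10.4 (216 coding nucleotides; chromosome V, 15089755 to 15090021) had 6.32, 22.9 and 42.2 FPKM in the prp-6, prp-8 and prp-31 libraries, against 80.8 FPKM with gfp RNAi, so its 3 knockdowns were stepped, with prp-6 lowest. Y53F4B.23 (chromosome II, 15124517 to 15126350) had 0.756 FPKM after prp-6, 0.933 FPKM after prp-8 and 7.95 FPKM after prp-31 knockdown, against 13.1 FPKM in the gfp control. Here prp-6 and prp-8 left little signal and prp-31 left more. Further genes of the same shape, F18E9.3 and ZC21.3, are among those with the smallest deposited P-values.

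F18E9.3 (chromosome X, 8586166 to 8590365) had 9.21, 9.88 and 46.1 FPKM in the prp-6, prp-8 and prp-31 libraries, against 70.4 FPKM with gfp RNAi. ZC21.3, now idpp-15 (chromosome III, 8525078 to 8528614), had 12.9 FPKM after prp-6, 12.4 FPKM after prp-8 and 48.4 FPKM after prp-31 knockdown, against 73.9 FPKM in the gfp control. In both, the prp-6 and prp-8 libraries agreed closely and the prp-31 library stood between them and control. The most abundant gene in control, ZC116.1 (chromosome V, 12609826 to 12610858), had 22.5, 34.3 and 94.997 FPKM in the prp-6, prp-8 and prp-31 libraries, against 129 FPKM with gfp RNAi, which is a stepped order again.

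At the low end, values of 0 limit what can be said. T06A10.2 is listed at 0 in the prp-6 and prp-8 libraries, at 3.85 FPKM in the prp-31 library and at 11.9 FPKM with gfp, while the authors' deposited table gives a pooled knockdown FPKM of 0 for it. T08D2.6 is listed at 0 with prp-6. K08D12.7 is listed at 0 in all knockdowns, against 0.546 FPKM with gfp, and no fold is given for it. The members with the largest P in the authors' deposited table were C16A11.5, C27B7.5 and ZK228.3, at 0.0096, 0.0092 and 0.0082, just inside the authors' bound of 0.01, and genes just outside it were not analysed here. C16A11.5 had 0.992, 0.612 and 1.33 FPKM in the prp-6, prp-8 and prp-31 libraries, against 2.71 FPKM with gfp RNAi, and the ratios of ZK228.3 were −2.43 after prp-6, −1.44 after prp-8 and −0.45 after prp-31 knockdown.

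In smg-1 larvae the unnamed genes showed different orders of the clones. All 73 were below gfp in every knockdown, as were 28.5 percent of the 485 genes of both smg-1 lists. The median log2 ratio was −1.09 (prp-6), −1.27 (prp-8) and −0.66 (prp-31). At least 2-fold lower were 41 with prp-6 (16.1 percent of all smg-1 list genes), 50 with prp-8 (21 percent) and 25 with prp-31 (11.5 percent), and 10 were so in every knockdown (5.36 percent). For N2 that last count was 4, against 1.89 percent. Without the prp-31 library it was 30 in smg-1 and 30 in N2, and without the prp-8 library 17 in smg-1. With a pseudocount of 5 FPKM it was 1 in either strain. By the authors' deposited q-values, 20 of the 73 had a q-value below 0.05, beside 17 of all 63 public-name genes of the same lower list. Over both smg-1 lists, with the higher genes in the total, 7.63 percent were called lower. Control levels ranged from 0.472 to 501.5 FPKM with a median of 21.6 FPKM.

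**Figure D3:**
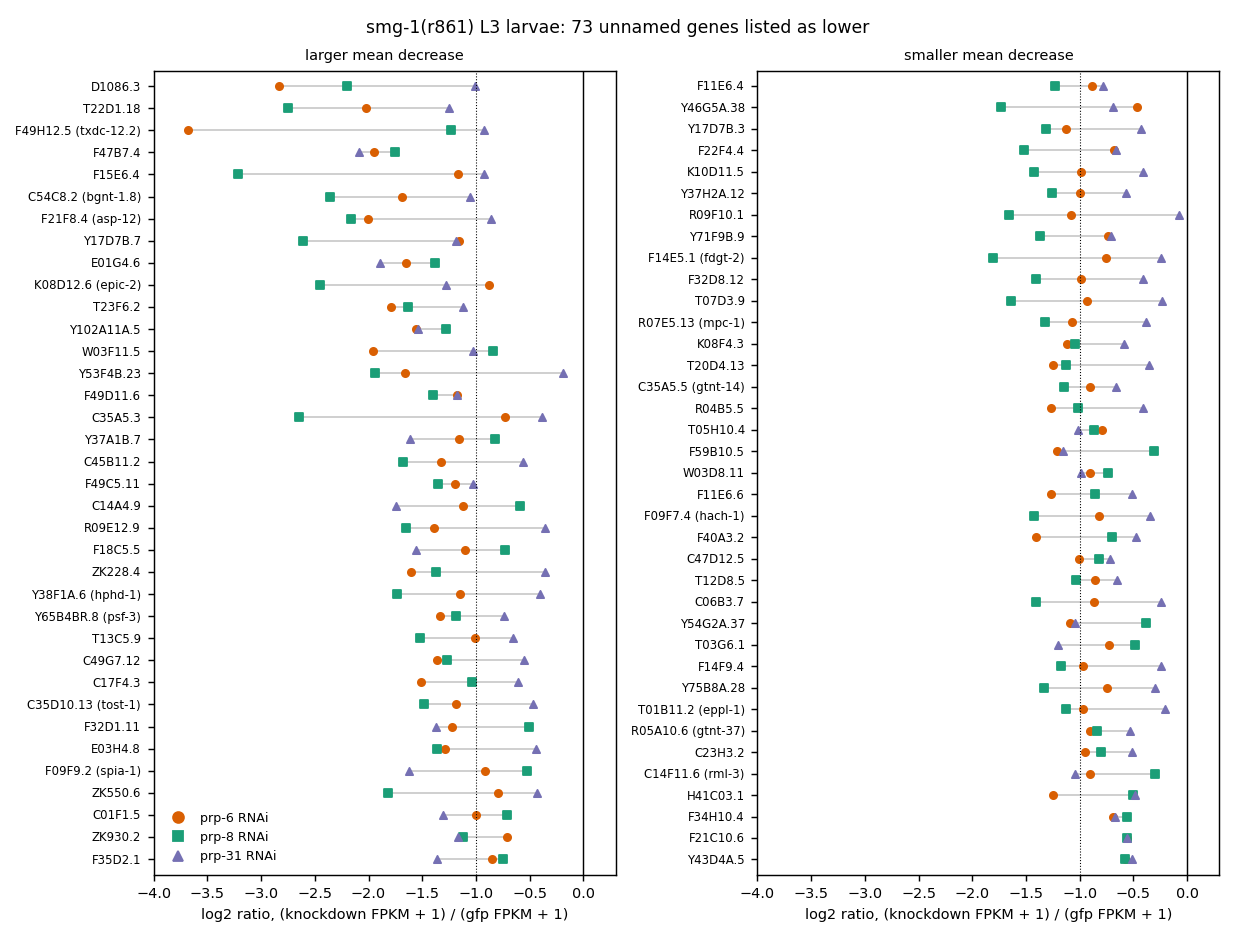
Each row is 1 of the 73 smg-1 genes, split by mean ratio into a left and a right panel, and the points give its log2 ratio of knockdown to gfp FPKM, each with 1 added, for prp-6 (circles), prp-8 (squares) and prp-31 RNAi (triangles); the dotted line marks 2-fold lower. The triangles are leftmost in 14 rows, such as C14A4.9 and F09F9.2, and nearest to 0 in 49 of the 72 rows without a tie.

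Of the 72 genes without a tie, prp-8 gave the lowest value for 36, prp-6 for 22 and prp-31 for 14. The 14 genes lowest with prp-31 had median ratios of −0.96 (prp-6), −0.74 (prp-8) and −1.37 (prp-31). Such groups were formed from the ratios themselves and are a way to describe them. In N2 no unnamed gene was lowest with prp-31, and none of the 14 is in the N2 lower list, so whether they keep this order in wild type is not known from the values analysed here.

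C14A4.9 is the clearest of the 14. It had 54.9 FPKM after prp-6, 79.8 FPKM after prp-8 and 35.3 FPKM after prp-31 knockdown, against 120.5 FPKM in the gfp control (chromosome II, 10599330 to 10600529). The prp-31 library was lowest and the prp-8 library nearest to control, the reverse of the usual order. F09F9.2, now spia-1, which encodes a secreted protein of the cuticle, had 74.5, 98.5 and 45.2 FPKM in the prp-6, prp-8 and prp-31 libraries, against 142 FPKM with gfp RNAi. The same order was seen in Y37A1B.7, F18C5.5, F32D1.11, T03G6.1, C14F11.6 (now rml-3), F35D2.1, C01F1.5 and W03D8.11. Of these, C14F11.6 was the most abundant and had 89.9 FPKM after prp-6, 137 FPKM after prp-8 and 81.5 FPKM after prp-31 knockdown, against 169 FPKM in the gfp control. ZK930.2, with ratios of −0.71 after prp-6, −1.12 after prp-8 and −1.17 after prp-31 knockdown, had prp-6 nearest to control instead.

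Others of the 14 were low with all clones. F47B7.4 (chromosome X, 3766384 to 3766626) had 0.853, 1.12 and 0.686 FPKM in the prp-6, prp-8 and prp-31 libraries, against 6.15 FPKM with gfp RNAi, the largest decrease shared by all clones among these genes in smg-1. E01G4.6 (chromosome II, 13482403 to 13485780) had 1.20 FPKM after prp-6, 1.65 FPKM after prp-8 and 0.859 FPKM after prp-31 knockdown, against 5.92 FPKM in the gfp control. T05H10.4 had 2.10, 1.96 and 1.66 FPKM in the prp-6, prp-8 and prp-31 libraries, against 4.39 FPKM with gfp RNAi, a flat profile in which the clones differ little.

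The 5 genes of the cuticle marker list in the same smg-1 lower list (col-38, col-128, dpy-9, col-153 and col-49) had median ratios of −1.20 (prp-6), −0.43 (prp-8) and −1.26 (prp-31). Their summed level was 160.4, 344.6 and 166.3 FPKM in the same libraries, against 392.5 FPKM with gfp. Another 4 genes of the cuticle list are in the smg-1 list of higher genes, with medians of 0.56 (prp-6), 1.19 (prp-8) and 0.28 (prp-31). In N2 the cuticle list has 27 higher genes and 3 lower ones. The 14 histone genes had medians of −1.96 (prp-6), −2.68 (prp-8) and −1.51 (prp-31), so their lowest clone was prp-8. The part of these genes' tissues in the order of the clones was not tested.

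**Figure D4:**
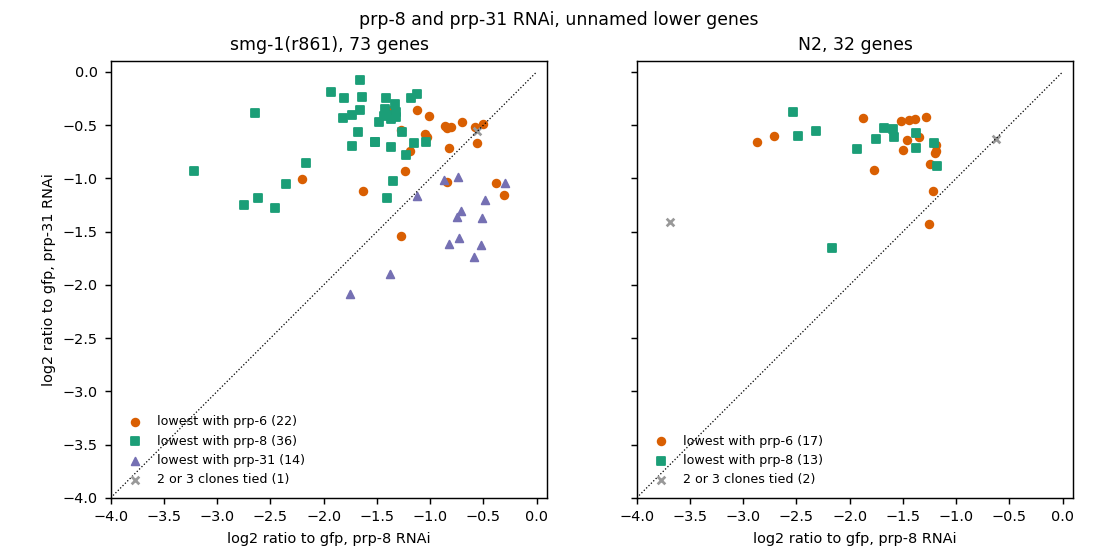
Each point is a gene, placed by its log2 ratio to gfp with prp-8 RNAi (horizontal) and prp-31 RNAi (vertical) in smg-1 (left) and N2 (right), with symbols for the clone that gave its lowest value; the dotted line marks equal ratios. In smg-1, 14 genes lie below the line with prp-31 as the lowest clone, and in N2 there are 0.

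Genes lowest with prp-8 formed the largest group in smg-1. F15E6.4 (216 coding nucleotides; chromosome IV, 4291462 to 4292109) had 7.89, 1.14 and 9.49 FPKM in the prp-6, prp-8 and prp-31 libraries, against 19.0 FPKM with gfp RNAi. T22D1.18, an intronless gene of 204 coding nucleotides, had 1.69 FPKM after prp-6, 0.622 FPKM after prp-8 and 3.59 FPKM after prp-31 knockdown, against 9.93 FPKM in the gfp control. The pseudogene Y17D7B.7 had 12.6, 3.98 and 12.4 FPKM in the prp-6, prp-8 and prp-31 libraries, against 29.5 FPKM with gfp RNAi. In F15E6.4 and Y17D7B.7 the prp-8 library was far below the other knockdowns. T22D1.18 had prp-8 lowest too, but all its knockdown levels were low. F15E6.4 and T22D1.18 are also short, so their FPKM rests on few possible fragment positions. ZK550.6 and T12D8.5, among the most abundant of the set, had the same lowest clone at smaller ratios, with −0.80 after prp-6, −1.82 after prp-8 and −0.43 after prp-31 knockdown for ZK550.6. For T12D8.5 they were −0.86 after prp-6, −1.03 after prp-8 and −0.66 after prp-31 knockdown.

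Genes lowest with prp-6 included the widest spread between clones in the whole set. F49H12.5, now txdc-12.2 and named for a thioredoxin domain, had 3.27, 22.3 and 27.8 FPKM in the prp-6, prp-8 and prp-31 libraries, against 53.9 FPKM with gfp RNAi (chromosome X, 2074448 to 2075944). Its prp-6 value stood far below all others, while prp-8 and prp-31 lay near each other. Y102A11A.5, the most abundant gene of the set, had 170.0 FPKM after prp-6, 207 FPKM after prp-8 and 172 FPKM after prp-31 knockdown, against 502 FPKM in the gfp control, and its clones hardly differed. T23F6.2 (chromosome IV, 12721356 to 12722994) had 1.75, 2.07 and 3.38 FPKM in the prp-6, prp-8 and prp-31 libraries, against 8.50 FPKM with gfp RNAi. F49D11.6 and F49C5.11, lowest with prp-8, were at least 2-fold lower with all clones, with ratios of −1.18 after prp-6, −1.40 after prp-8 and −1.18 after prp-31 knockdown for F49D11.6. For F49C5.11 they were −1.19 after prp-6, −1.35 after prp-8 and −1.03 after prp-31 knockdown. H41C03.1, F14E5.1 and F14F9.4 had the largest P in the authors' deposited table, at 0.00975 for the first 2 and 0.00995 for F14F9.4. F21C10.6 is listed at 0 in all knockdowns, against 0.472 FPKM with gfp.

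Several members have since received names that tell what they encode. HACH-1, a hydrolase of the propionate shunt, and HPHD-1, a dehydrogenase that acts after it in the same route of propionate breakdown, were both in the smg-1 list. Their genes had similar profiles. F09F7.4 (hach-1) had 96.6, 63.2 and 135 FPKM in the prp-6, prp-8 and prp-31 libraries, against 171 FPKM with gfp RNAi, and Y38F1A.6 (hphd-1) had 88.2 FPKM after prp-6, 58.5 FPKM after prp-8 and 148 FPKM after prp-31 knockdown, against 197 FPKM in the gfp control. In both, prp-8 was lowest, prp-6 in the middle and prp-31 nearest to control. These places were common in smg-1, where 36 of the 72 genes without a tie were lowest with prp-8. In 49 of the 72, prp-31 was the least lowered clone. R07E5.13, now mpc-1, the gene of a mitochondrial pyruvate carrier subunit, had the same order with 56.5, 47.4 and 91.7 FPKM in the prp-6, prp-8 and prp-31 libraries, against 119.8 FPKM with gfp RNAi. T01B11.2 (eppl-1, named for ethanolamine phosphate phospholyase) and F14E5.1 (fdgt-2, named for facilitated glucose transport) had it too, with ratios of −0.97 after prp-6, −1.13 after prp-8 and −0.21 after prp-31 knockdown for eppl-1. The fdgt-2 ratios were −0.76 after prp-6, −1.81 after prp-8 and −0.25 after prp-31 knockdown.

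Other named members act in the germline or in replication. In N2, C06A5.6 (simr-1), the gene of a Tudor-domain protein of the germline small RNA pathway, had 1.61 FPKM after prp-6, 1.77 FPKM after prp-8 and 2.74 FPKM after prp-31 knockdown, against 5.33 FPKM in the gfp control. In smg-1, C35D10.13 (tost-1), whose product is an adaptor of the PETISCO complex needed in embryos, had 11.0, 8.79 and 18.8 FPKM in the prp-6, prp-8 and prp-31 libraries, against 26.4 FPKM with gfp RNAi. Y65B4BR.8 (psf-3), which encodes a subunit of the GINS complex of the replicative helicase, had 6.29 FPKM after prp-6, 7.07 FPKM after prp-8 and 10.01 FPKM after prp-31 knockdown, against 17.4 FPKM in the gfp control. These 3 genes had prp-31 as their least lowered clone.

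Genes named for proteases or glycosyltransferases were lower as well. F21F8.4 (asp-12), of the aspartyl protease family, had 2.29, 1.95 and 6.28 FPKM in the prp-6, prp-8 and prp-31 libraries, against 12.2 FPKM with gfp RNAi. C54C8.2 (bgnt-1.8), of a glycosyltransferase family, had 0.734 FPKM after prp-6, 0.0908 FPKM after prp-8 and 1.69 FPKM after prp-31 knockdown, against 4.59 FPKM in the gfp control, with prp-8 lowest. C35A5.5 (gtnt-14) and R05A10.6 (gtnt-37) were low in all libraries, with 2.58 and 2.33 FPKM in the gfp library and least lowered by prp-31. Their ratios were −0.90 after prp-6, −1.15 after prp-8 and −0.67 after prp-31 knockdown for gtnt-14, and −0.90 after prp-6, −0.84 after prp-8 and −0.53 after prp-31 knockdown for gtnt-37. These genes did not share a lowest clone. C27B7.5, now egc-2, for which no role is given here, had in N2 5.52, 4.79 and 11.0 FPKM in the prp-6, prp-8 and prp-31 libraries, against 16.4 FPKM with gfp RNAi.

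The pseudogenes were below control as well. Beside Y17D7B.7, given above, the N2 gene Y102A5C.6 had 1.30, 1.51 and 3.26 FPKM in the prp-6, prp-8 and prp-31 libraries, against 6.09 FPKM with gfp RNAi. In smg-1 larvae T20D4.13 had 1.82 FPKM after prp-6, 2.06 FPKM after prp-8 and 4.22 FPKM after prp-31 knockdown, against 5.68 FPKM in the gfp control. Reads of a pseudogene and of its parent gene may have been split between them, so their levels are uncertain.

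Length and intron number varied widely among genes that were below control. Y43D4A.5, with 4635 coding nucleotides and 15 introns, had 0.164, 0.169 and 0.218 FPKM in the prp-6, prp-8 and prp-31 libraries, against 0.740 FPKM with gfp RNAi. E01G4.6, with 2652 coding nucleotides and 3 introns, is the gene given above as low with all clones. At the short end, F59B10.5 had ratios of −1.21 after prp-6, −0.31 after prp-8 and −1.15 after prp-31 knockdown, with prp-8 nearest to control. F22F4.4 had −0.68 after prp-6, −1.52 after prp-8 and −0.66 after prp-31 knockdown, with prp-8 lowest.

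The overlap of both strains is 10 genes, which is 31.2 percent of the N2 list and 13.7 percent of the smg-1 list. For genes with a public name it was 7, or 20.6 percent of the N2 and 11.1 percent of the smg-1 lower list. Public-name genes that also stand in a larval list of higher genes were kept in these shares. The strains share no library, but each list was selected by the authors on its own contrast, and the overlap was not tested. Like all members of both lists, the 10 genes were below their own control in every knockdown. With prp-8 all 10 were at least 2-fold lower in each strain. So were 50 of the 73 members in smg-1 (21 percent of all smg-1 list genes) and 31 of the 32 in N2 (21.9 percent). The medians of the 10 genes were −1.32 (prp-6), −1.53 (prp-8) and −0.37 (prp-31) in smg-1, and −1.94, −1.52 and −0.63 for the same clones in N2.

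**Figure D5:**
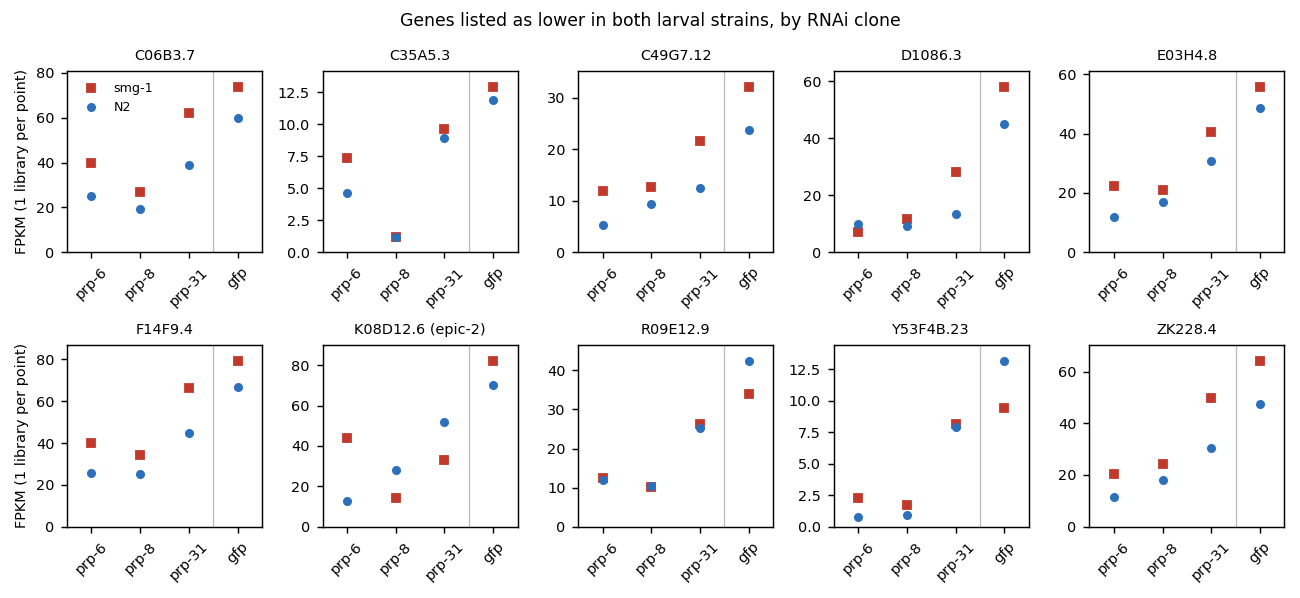
For each of the 10 genes listed as lower in both strains, the FPKM (vertical axis, starting at 0) of each library is plotted by RNAi clone, with squares for smg-1 and circles for N2, and the gfp control to the right of the grey line. In D1086.3 all 6 knockdown values, at most 28.3 FPKM, lie below the gfp values of 58.0 FPKM in smg-1 and 45.1 FPKM in N2.

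In smg-1 larvae D1086.3 had 7.29, 11.8 and 28.3 FPKM in the prp-6, prp-8 and prp-31 libraries, against 58.0 FPKM with gfp RNAi. The control was above that in N2, and prp-31 left more than it did there. In smg-1, R09E12.9 (chromosome V, 777571 to 778235) had 12.3 FPKM after prp-6, 10.1 FPKM after prp-8 and 26.3 FPKM after prp-31 knockdown, against 33.9 FPKM in the gfp control. The N2 libraries gave 12.1 FPKM after prp-6, 10.3 FPKM after prp-8 and 25.3 FPKM after prp-31 knockdown, against 42.3 FPKM in the gfp control. Its prp-6, prp-8 and prp-31 values were nearly equal between the strains. In smg-1 larvae Y53F4B.23 had 2.31, 1.74 and 8.19 FPKM in the prp-6, prp-8 and prp-31 libraries, against 9.47 FPKM with gfp RNAi. Here the prp-31 library was near control.

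In smg-1, C35A5.3 (chromosome V, 10501243 to 10501397) had 7.37, 1.23 and 9.65 FPKM in the prp-6, prp-8 and prp-31 libraries, against 12.9 FPKM with gfp RNAi. Its N2 levels were 4.65, 1.23 and 8.96 FPKM in the prp-6, prp-8 and prp-31 libraries, against 11.9 FPKM with gfp RNAi. In both strains prp-8 was by far its lowest clone, and it is one of those with exons that overlap a neighbour. In smg-1, C49G7.12 (chromosome V, 4038821 to 4039934) had 11.9 FPKM after prp-6, 12.7 FPKM after prp-8 and 21.6 FPKM after prp-31 knockdown, against 32.1 FPKM in the gfp control. In N2 it had 5.38 FPKM after prp-6, 9.41 FPKM after prp-8 and 12.6 FPKM after prp-31 knockdown, against 23.8 FPKM in the gfp control. In smg-1, E03H4.8 (chromosome I, 12426734 to 12426766) had 22.2, 21.0 and 40.7 FPKM in the prp-6, prp-8 and prp-31 libraries, against 55.6 FPKM with gfp RNAi. The N2 libraries gave 12.02, 17.0 and 30.9 FPKM in the prp-6, prp-8 and prp-31 libraries, against 48.6 FPKM with gfp RNAi. In both of these genes prp-31 was the clone nearest to control in either strain.

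C06B3.7 (chromosome V, 13909748 to 13911524) and F14F9.4 (chromosome V, 5132741 to 5137100) behaved alike. In smg-1, the first had 39.8, 27.0 and 62.0 FPKM in the prp-6, prp-8 and prp-31 libraries, against 73.6 FPKM with gfp RNAi. Its N2 levels were 25.0, 19.3 and 38.8 FPKM in the prp-6, prp-8 and prp-31 libraries, against 60.0 FPKM with gfp RNAi. In smg-1, the second had 39.9 FPKM after prp-6, 34.4 FPKM after prp-8 and 66.5 FPKM after prp-31 knockdown, against 79.0 FPKM in the gfp control. In N2 it had 25.8 FPKM after prp-6, 25.1 FPKM after prp-8 and 44.7 FPKM after prp-31 knockdown, against 66.9 FPKM in the gfp control. For both, prp-8 was lowest in each strain and every library of smg-1 was above the same library of N2. The latter was also so in C49G7.12, E03H4.8 and ZK228.4, and in C35A5.3 apart from nearly equal prp-8 libraries. In smg-1, ZK228.4 (chromosome V, 18462804 to 18465320) had 20.3, 24.1 and 49.6 FPKM in the prp-6, prp-8 and prp-31 libraries, against 63.9 FPKM with gfp RNAi. The N2 libraries gave 11.5, 17.98 and 30.5 FPKM in the prp-6, prp-8 and prp-31 libraries, against 47.3 FPKM with gfp RNAi, with prp-6 lowest in both.

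K08D12.6, now epic-2, was the only shared gene in which prp-31 was not the clone nearest to control in both strains. In smg-1, it had 44.0 FPKM after prp-6, 14.1 FPKM after prp-8 and 33.2 FPKM after prp-31 knockdown, against 81.9 FPKM in the gfp control. Its N2 levels were 12.5 FPKM after prp-6, 28.2 FPKM after prp-8 and 52.0 FPKM after prp-31 knockdown, against 70.1 FPKM in the gfp control (chromosome IV, 1720790 to 1723069). In smg-1 prp-8 was lowest and prp-6 nearest to control, whereas in N2 prp-6 was lowest and prp-31 nearest to control. The lowest clone also differed between the strains in D1086.3, E03H4.8 and Y53F4B.23. In the authors' deposited tables its pooled gfp FPKM, 56.8 in smg-1 and 53.5 in N2, is below the value of the gfp library itself, whereas the median ratio of pooled to library gfp FPKM was 1.14 in smg-1 and 1.19 in N2.

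Between the strains, the decrease with prp-6 was smaller in smg-1 for 9 of the 10 genes, with a median difference (smg-1 minus N2) of 0.42 on the log2 scale and a range of −0.77 to 1.52. With prp-31 it was smaller for 8 of 10, with a median of 0.32. With prp-8 it was smaller for 5 of 10, with a median of 0.04. D1086.3 was the exception with prp-6, and C35A5.3 and K08D12.6 with prp-31. These differences share 1 gfp library per strain and were not tested. The gfp level in smg-1 was above that in N2 for 8 of the 10 and below it for R09E12.9 and Y53F4B.23. The median ratio over all 10 was 1.17.

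The adult glp-4 libraries, which the choice of members did not use, list 4 of the 95 genes. In the glp-4 lower list are 3 of the 95 (3.16 percent), beside 4 of 87 public-name lower genes (4.6 percent) and 10 of all 813 larval list genes (1.23 percent). In the glp-4 higher list is 1 of the 95 (1.05 percent), beside 0 of the 87 and 10 of the 813 (1.23 percent). These shares were not tested. T05F1.2, in the glp-4 lower list, had in glp-4 1.51 FPKM after prp-8 and 8.29 FPKM after prp-31 knockdown, against 11.9 FPKM with gfp RNAi. Its N2 larval levels were 1.31, 1.35 and 2.34 FPKM in the prp-6, prp-8 and prp-31 libraries, against 4.37 FPKM with gfp RNAi. In glp-4, C08F8.3 had 0.940 FPKM after prp-8 and 3.17 FPKM after prp-31 knockdown, against 5.37 FPKM with gfp RNAi. In N2 larvae the same gene had 2.31, 2.05 and 3.84 FPKM in the prp-6, prp-8 and prp-31 libraries, against 6.96 FPKM with gfp RNAi. T05H10.4, a member through smg-1, had in glp-4 1.26 FPKM after prp-8 and 3.06 FPKM after prp-31 knockdown, against 4.96 FPKM with gfp RNAi. In all 3 the prp-8 library of glp-4 was lower than the prp-31 library, which was below control too. These 3 genes have glp-4 values here only because the authors listed them as lower in glp-4, so being below control there was selected for. Members in neither glp-4 list have no glp-4 values here.

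Y75B8A.3, now cest-12 and named for a carboxylesterase domain, is in the glp-4 list of higher genes. In glp-4 adults it had 34.3 FPKM after prp-8 and 46.8 FPKM after prp-31 knockdown, against 28.5 FPKM with gfp RNAi. In N2 larvae it had 11.4, 8.32 and 30.6 FPKM in the prp-6, prp-8 and prp-31 libraries, against 45.5 FPKM with gfp RNAi. The adults differ from the larvae in genotype, stage, temperature and time on RNAi, which cannot be told apart. In the authors' deposited table the q-values of these 4 genes in glp-4 lay between 0.488 and 0.925.

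By the deposited intervals, 8 pairs of members lie within 50 kb of each other. The genes between Y17D7B.3 and the pseudogene Y17D7B.7 were not counted. In 2 of the other pairs no other protein-coding gene stands between the members. The first is K08D12.6 and K08D12.7 (epic-2 and epic-3) on chromosome IV, of which epic-3 was near 0 in N2. The other is ZK228.3 and ZK228.4 on chromosome V, with a gap of 1573 bases and opposite strands. In N2 ZK228.3 had 2.67, 6.31 and 13.5 FPKM in the prp-6, prp-8 and prp-31 libraries, against 18.8 FPKM with gfp RNAi, and ZK228.4 followed the same order with prp-6 lowest. C35A5.3 and C35A5.5, F11E6.4 and F11E6.6, and Y17D7B.3 and Y17D7B.7 lie within 5 kb of each other, and the 2 members of each pair differ by at least 2-fold in control level except for F11E6.4 and F11E6.6 at 5.66 and 4.70 FPKM. How many such pairs other lists of this size hold was not examined.

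Beside the unnamed genes, the genes with a public name in the same lower lists had similar medians, except with prp-6 in N2. Unlike the unnamed lists, these public-name lists were not cleared of genes that also stand in a larval list of higher genes. In smg-1 the 63 public-name genes had −1.08 (prp-6), −1.35 (prp-8) and −0.81 (prp-31), close to the medians of the 73 unnamed ones given above. At least 2-fold lower in every knockdown were 10 of the 73 unnamed and 16 of the 63 public-name genes, or 3 of 49 without the 14 histone genes. In N2 the 34 public-name genes had −1.46 (prp-6), −1.33 (prp-8) and −0.74 (prp-31), so with prp-6 the 32 unnamed genes, at −1.92, were lower. The commonest lowest clone in N2 was prp-6 among the unnamed genes (17 of 32) and prp-8 among the public-name genes (19 of 34). In N2, prp-31 was the lowest clone for 0 of the 32 unnamed and 3 of the 34 public-name genes, and in smg-1 for 14 of the 73 unnamed and 10 of the 63 public-name genes. With all genes counted, prp-31 was the least lowered clone in N2 for 30 of the 32 unnamed and 25 of the 34 public-name genes. In smg-1 it was so for 49 of the 73 unnamed and 42 of the 63 public-name genes. None of these differences was tested.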

How the data were processed

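The sources were 6 tables that the authors deposited, a higher and a lower list per strain, with 1 library per group and 11 libraries in all. Per the file headers they hold FPKM per library and pooled FPKM of all knockdowns and of gfp. The authors also deposited P-values and q-values, a fold change on the log2 scale, and a test statistic (a score) that was not used. The submitters' processing notes name Cufflinks and Cuffdiff. Versions, aligner, genome build and gene models: not given in the sources used here. The lists hold selected genes only, with a deposited P-value of at most 0.01 in the larval tables, and other genes were not analysed here. The glp-4 tables are titled glp-1, and their samples L3, while strain and stage fields say glp-4 adults, which was followed.

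From the single-library FPKM, log2 ratios with a pseudocount of 1 FPKM were computed per clone and strain, without a filter. No test was made: groups have 1 library, and a fit across strains would test the contrast that selected the genes. Names, gene types, introns (longest coding sequence) and neighbours came from the Ensembl release 115 and RefSeq WBcel235 annotation. The members, lists and rule for named genes (shared genes, glp-4 genes, and the extremes of decrease, spread, control level and deposited P per strain, plus currently named genes) were chosen with earlier results of these data known. The intron counts, and the groups by lowest clone, were added after the values were seen, as were genes named as further examples in those groups. The software was pandas 2.3.3 and numpy 2.4.6 under Python 3.11.15, with matplotlib 3.10.9 for figures. The code was tested on simulated data.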

Additional observations from a re-analysis of the deposited data

Results flagged for a closer look

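Y75B8A.3 (cest-12) was below control in every N2 larval knockdown and above it in both glp-4 adult knockdowns. Its log2 ratios were 0.26 with prp-8 and 0.70 with prp-31 in glp-4, and −1.91 (prp-6), −2.32 (prp-8) and −0.56 (prp-31) in N2. Its glp-4 values are known here only through the glp-4 list of higher genes, so being above control there was selected for. The difference was not tested, and strain, stage, temperature and time on RNAi differ together.

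C38C6.3 was left out of the members because it is lower in smg-1 and higher in N2. Its log2 ratios were −0.34 (prp-6), −0.79 (prp-8) and −1.68 (prp-31) in smg-1, and 3.41, 0.47 and 1.15 in N2. In smg-1 it had 29.4, 21.3 and 11.0 FPKM in the prp-6, prp-8 and prp-31 libraries, against 37.5 FPKM with gfp RNAi. In N2 it had 49.8, 5.61 and 9.60 FPKM in the prp-6, prp-8 and prp-31 libraries, against 3.77 FPKM with gfp RNAi, so the gfp libraries themselves differ widely between the strains. The difference was not tested.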

How the results depend on the processing

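Of 124 recomputed summary values (medians, counts, the overlap and the differences between strains), 97 stayed within 1.5 times, the bound used here for a change. Counts have no direction, and every member was below gfp in every knockdown, so no median ratio of a list could change sign. The median differences between strains, 0.42 (prp-6), 0.04 (prp-8) and 0.32 (prp-31), are themselves smaller than the bound, so staying within it says little about them. Of 120 values of the shared genes, 110 stayed within the bound, and the other 10 belong to C35A5.3 and Y53F4B.23 under other pseudocounts. With genes averaging under 1 FPKM left out, an alternative chosen after seeing the data, 20 (prp-6), 36 (prp-8) and 14 (prp-31) were lowest in smg-1, and 16, 13 and 0 in N2. With a pseudocount of 5 FPKM, 18 (prp-6), 33 (prp-8) and 11 (prp-31) smg-1 genes were at least 2-fold lower and 1 was in every knockdown. In N2 the counts were 20 (prp-6, still within the bound), 20 (prp-8), 1 (prp-31) and 1 in every knockdown. Without genes that have a 0, the N2 counts for prp-31 and for every knockdown were 2. Among genes with a deposited q-value below 0.05, the counts were 17, 16 and 13 in smg-1; in N2 there is 1 such gene, D1086.3, so each count is 1 and the medians with prp-8 and prp-31 are −2.16 and −1.66, and 1 gene is shared between the strains. With the deposited pooled FPKM, 34 smg-1 and 30 N2 genes were at least 2-fold lower, with a median of −1.28 in N2. Lower in every knockdown by 2-fold were 30 smg-1 and 30 N2 genes without the prp-31 library, and 17 smg-1 genes without the prp-8 library. No paired analysis was run, and no result comes from a test. The labels give no replicate numbers. The strains share clones, but a fit blocked by strain would test the contrast that selected the genes. The depth behind each FPKM is unknown.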

Other observations

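H23N18.5 and ZC434.3, the other unnamed genes left out as lower in smg-1 and higher in N2, had opposite signs only in part. In smg-1 H23N18.5 had 277, 127 and 123 FPKM in the prp-6, prp-8 and prp-31 libraries, against 345 FPKM with gfp RNAi. In N2 it had 590.3, 14.7 and 144 FPKM in the prp-6, prp-8 and prp-31 libraries, against 52.0 FPKM with gfp RNAi. In smg-1 ZC434.3 had 34.8 FPKM after prp-6, 29.0 FPKM after prp-8 and 17.9 FPKM after prp-31 knockdown, against 54.3 FPKM in the gfp control. In N2 it had 44.0 FPKM after prp-6, 5.17 FPKM after prp-8 and 9.57 FPKM after prp-31 knockdown, against 6.24 FPKM in the gfp control. For both genes the gfp library of smg-1 was far above that of N2, while the prp-6 library of N2 was above that of smg-1.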
